A study of Mus musculus with 24 samples.

Results

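The kidneys compared here came from mice titled Mop3fxfxCreAlb, at 20 and at 10 weeks of age. All arrays with that title were taken, 12 of the 24 in the series: 6 arrays of each age, 1 for each zeitgeber time (ZT, hours after lights on) of 0, 4, 8, 12, 16 and 20. Both Mop3 alleles (the gene is now called Arntl) were floxed in all mice of the series. The Mop3fxfxCreAlb mice also carried a Cre recombinase driven by the albumin promoter, which acts in hepatocytes. The other 12 arrays, titled Mop3fxfx, held floxed kidneys without that Cre at the same ages and times. The mice were C57Bl/6J, were fed ad libitum and lived under 12 h of light and 12 h of darkness. Each array held RNA pooled from at least 3 mice, with 1 array per age and time, so errors and p-values describe the spread between pools and arrays and not between animals. Each array also held a common reference, a kidney pool of all the 10-week mice of both genotypes.

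The kidney was not the organ in which Mop3 was deleted. In a circadian clock the ARNTL and CLOCK proteins switch on the Per, Cry and Nr1d genes, whose products in turn shut that drive down over the course of a day, and the liver and the kidney each run such a clock. The proximal tubule of the kidney reclaims amino acids, sugars and phosphate and passes drugs and organic anions into the urine. Many of its transporters and enzymes of lipid metabolism are known in mice to depend on age, sex hormones and circulating metabolites.

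The 2 dyes of these arrays do not behave as labelled. The labels put the sample in Cy3 and the reference in Cy5. By fitted amplitude the daily rhythm of the clock genes, which a common reference cannot carry, lay in Cy5. Few rhythms passed a test over both ages (limma, adjusted p under 0.05). They were 27 of 31958 probes in the ratio, 1 in Cy5 alone and 0 in Cy3 alone. The fitted amplitude (mean to peak, log2) of Dbp was 1.73 in Cy5 alone and 0.04 in Cy3 alone, and that of Arntl was 1.01 and 0.12. Ratios are therefore given as log2 Cy5 over Cy3, and a difference as 20 minus 10 weeks. Under the labelled dyes the sign of every ratio below turns, and higher and lower in the ratio change places. Differences in 1 dye alone keep their sign.

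The pools had the transcripts of kidney. The podocyte gene Nphs1, the proximal tubule genes Slc34a1 and Lrp2, the thick limb genes Umod and Slc12a1 and the collecting duct gene Aqp2 were well above background in both dyes on all 12 arrays. Y-linked Uty, Eif2s3y and Kdm5d were not called different between the ages, at 0.20, 0.15 and 0.01. For Ddx3y the brighter probe gave 0.87 ± 0.20 (SE, limma adjusted p = 0.0148) and the other probe -0.04. Without the pair of arrays of ZT8, 12 or 16 the first fell short of the threshold, at adjusted p = 0.0513 to 0.0548. The 4 probes for Xist were above background in Cy5 on 0 to 2 of 6 arrays of each age. The share of spots above background ran from 60.1% to 98.6% in Cy5, and the 20-week array of ZT20 was the brightest, with a median Cy5 signal of 719 against 85.1 to 253 on the others. The ages lay on different slides. The 10-week arrays were on slides 1 and 3 and the 20-week arrays on slides 4, 5 and 6, so slide and age cannot be told apart in any value below.

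Letters of the probes come first, because 2 classes of probe letters recur among the largest differences. Each gene on the array is read by 60-base DNA probes, and their letters stand in the deposited scanner files. The first class holds a hexamer that is CCCTAA or one of its rotations, which are CCTAAC and CTAACC and TAACCC and AACCCT and ACCCTA, the letters of the vertebrate telomere repeat. Both strands were searched, the rotations overlap each other, and the motif was chosen after the values had been seen, so it describes the probes and was not tested. Stretches of 30 bases from 6 such probes are shown 5′ to 3′ with the rotations in capitals; they are the 6 genes of this class among the 12 largest higher differences that Cy5 led and no other probe of the gene opposed:
4930567H12Rik: ctaaacctaaacgCCCTAACtaccttgagc
Dnajb8: gtggacaagtgacagccaCCTAACCCatcc
Creb3l3: gacactaacacctgAACCCTAACCtccaac
Evx2: caccggaagcctACCCTAcccttttcactc
Adamts4: cctattatagCCCTAACCtagctatgaaat
Syt6: ataaaaaagaacACCCTAAaccccgtctac

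The second class is rich in G and C. The median probe was 41.7% G and C, and the probes below ran from 76.7% to 81.7% over their whole length. They are 4 of the 5 probes with the largest higher difference carried by Cy3 and not by Cy5, again with 30 bases each and G and C in capitals. The fifth is Rusc1, whose probe has 73.3% G and C and whose letters are not shown:
Cox17: CCCGCCGCaCCCaCCGGCCCGCaCGGCttG
Klf2: GCCGCCGCtCaGCCCCGaCGGCCCCCtGCG
Foxq1: CCGCCGGCGCGGCGCaCCtGtaCtGCCCCC
Grin2d: CCGGGCCCtCGCGCCaCGCGCGCCGCtGtC

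Cox17 and Klf2 each had another probe with fewer G and C, at 53.3% and 43.3%, shown here for contrast:
Cox17 second probe: CCCGGaaaCCaaGaaGGCGCGtGatGCGtG
Klf2 second probe: CtataaGGGaGaCGatGGCatCtCtGCCGC

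Between 20 and 10 weeks 8601 of 31958 probes differed in the ratio (26.9%, limma, paired by time, Benjamini-Hochberg adjusted p under 0.05). Of these 3964 were higher at 20 weeks (12.4% of all probes) and 4637 lower (14.5%). By the brightest probe of each of 16965 genes, 2209 genes were higher (13%) and 3137 lower (18.5%). In 4398 probes (13.8%) no array of one age overlapped with any of the other. Most differences were small, and 287 probes were called higher and 77 called lower by over 2-fold. The median over all probes was 0.01. Each dye alone, scaled between arrays by quantiles, gave 4819 called probes in Cy5 (15.1%, with 2247 higher and 2572 lower). In Cy3 it gave 6603 (20.7%, with 3416 higher and 3187 lower). The larger count was thus in the dye that did not carry the clock rhythm, and the reason was not tested. The size of the ratio's count rests on its loess correction. With each array centred on its median instead, limma called 0 probes, the smallest adjusted p being 0.0539, although 7012 had an unadjusted p under 0.05 (4278 higher and 2734 lower, against 6195 and 6421 with loess). Without slide 5, which held the 20-week arrays of ZT8 and ZT12, the count was 1980.

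The dyes did not share the called probes evenly. In 2605 of the 8601 (30.3%) Cy5 by itself passed, moved the same way as the ratio and moved more than Cy3, and in 1612 (18.7%) the reverse held, with Cy3 past the threshold and the larger. The other 4384 (51.0%) passed in neither dye alone or were mixed. Among the probes called by over 2-fold the Cy5 class held 240 (65.9%) and the Cy3 class 49 (13.5%). The genes named next are the 12 in each direction with the largest difference that passed in the ratio and in Cy5 alone, moved more in Cy5, had 1 sign in 6 of 6 pairs of arrays and had no probe called the other way.

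Slc7a12, an amino acid transporter of the kidney known to be more abundant in female mice, had the largest difference. Its ratio at 10 weeks was 1.07 at ZT0, 0.08 at ZT4, 0.40 at ZT8, -0.24 at ZT12, -0.05 at ZT16 and -0.47 at ZT20, and at 20 weeks 2.85, 3.25, 2.69, 2.75, 3.13 and 1.68 in the same order. Every 20-week pool was above every 10-week pool, and the lowest of them was ZT20. The difference was 2.59 ± 0.19 (SE, n = 6 pairs, limma adjusted p = 0.00036), with 2.96 in Cy5 alone and 0.34 in Cy3 alone. Floxed kidneys without Cre gave 3.21.

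Apob, the protein core of liver and gut lipoproteins, was at -0.68 to 0.88 at 10 weeks and at 1.52 to 2.24 at 20 weeks. The difference was 1.73 ± 0.23 (limma adjusted p = 0.00132). The second brightest of its 4 probes gave 1.56 and was called, and the other 2, which are dim, gave 0.17 and 0.19 and were not. Cyp4a14, a fatty acid hydroxylase switched on by PPAR alpha, moved from -1.07 to 0.67 at 10 weeks to 1.01 to 1.76 at 20 weeks, a difference of 1.63 ± 0.24 (adjusted p = 0.0022). The ages of both genes were apart on every array. Tmsb4x, which binds actin monomers, was higher by 1.56 ± 0.20 (adjusted p = 0.00112) and Grn, the secreted protein progranulin, by 1.70 ± 0.24 (adjusted p = 0.00182). The second probe of Grn gave 0.24 and was not called. Lars2, the leucyl-tRNA synthetase of mitochondria, was higher by 1.57 ± 0.30 (adjusted p = 0.00574). Without slide 3 that value fell to 0.77 (adjusted p = 0.0613), and without slide 5 it was 1.48 (adjusted p = 0.0895).

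**Figure D1:**
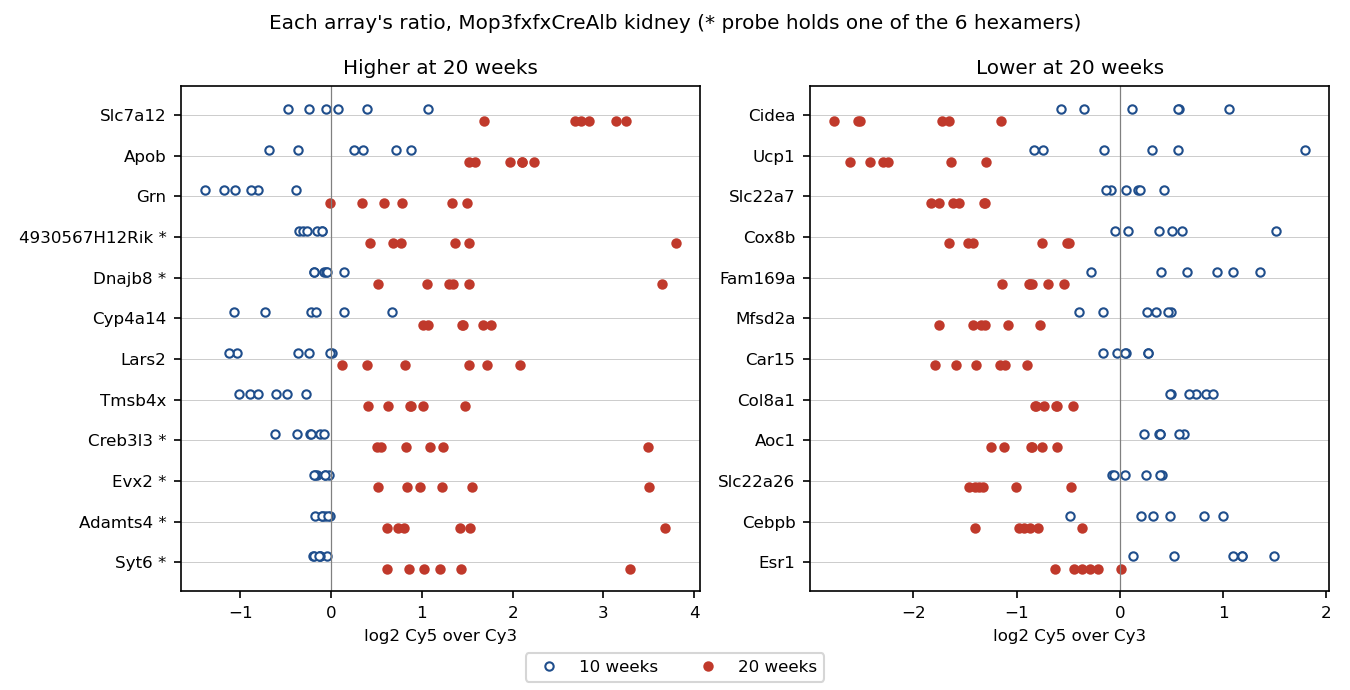
Log2 Cy5 over Cy3 of each of the 12 Mop3fxfxCreAlb arrays for the 12 genes with the largest higher and the 12 with the largest lower difference among those led by Cy5 with no probe of the gene called the other way; open circles are 10 weeks, filled circles 20 weeks, and an asterisk marks a probe that holds a rotation of the hexamer. The ages overlap only in Cebpb, and in the 6 marked genes 1 array, ZT20 at 20 weeks, lies between 3.29 and 3.80, above the others.

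The other 6 of the 12 higher genes are the ones whose probes hold rotations, and they share 1 course over the arrays. Adamts4, a protease of cartilage matrix, was at -0.18 to -0.01 on the 10-week arrays. At 20 weeks it was 0.74 at ZT0, 1.53 at ZT4, 0.62 at ZT8, 0.80 at ZT12, 1.42 at ZT16 and 3.68 at ZT20. Creb3l3, a transcription factor of liver and gut, was at 0.56, 1.10, 0.50, 0.83, 1.24 and 3.49 at those times, with all 10-week arrays at -0.61 to -0.07. In both, ZT8 was the lowest 20-week array and ZT20 by far the highest, the array with the brightest signal. The homeobox gene Evx2 reached 3.50 at ZT20, the chaperone Dnajb8 3.64, the vesicle protein Syt6 3.29 and 4930567H12Rik 3.80. The 6 differences ran from 1.54 to 1.64, and all were called. The second, dimmer probe of 4930567H12Rik, which holds 1 rotation, gave 0.04 and was not called (limma adjusted p = 0.742). Without the pair of ZT20 they ran from 1.05 to 1.26 and were called too. 2 of the calls ended without the pair of ZT16: 4930567H12Rik, at 1.63 (limma adjusted p = 0.0502), and Creb3l3, at 1.54 (adjusted p = 0.0644). Leaving out slide 1 ended the calls of the same genes, with adjusted p = 0.0517 and 0.0514, and leaving out slide 5 those of 4930567H12Rik, Adamts4, Creb3l3 and Evx2, with adjusted p = 0.0602, 0.0578, 0.0806 and 0.0572.

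At least 1 rotation on the printed strand was held by 1636 of 31958 probes (5.12%), and of these 24.8% were called higher and 9.90% lower, against 12.4% and 14.5% of all probes. Of the 287 probes called higher by over 2-fold, 131 (45.6%) held one. With 1, with 2 and with 3 or more rotations the share called higher was 16.9% of 1160, 38.6% of 334 and 56.3% of 142 probes. In the last group 0 probes were called lower (limma), and its median difference was 1.02 in the ratio, 1.15 in Cy5 and 0.21 in Cy3. Probes with the hexamers only on the other strand (1247) had a median of -0.0029, with 11.5% called higher. The rotations taken singly were on 0.942% to 1.74% of probes, and 27.9% to 36.2% of those were called higher.

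On the 20-week ZT20 array the 6 genes stood at 3.29 to 3.80. That is nearer to the 142 probes with 3 or more rotations than to all 1636. The 20-week medians of all 1636 ran from 0.04 at ZT0 to 0.18 at ZT20. Creb3l3, Dnajb8 and Adamts4 hold 5, 3 and 3 rotations and are themselves among the 142. The probes of 4930567H12Rik and Syt6 hold 2 and that of Evx2 holds 1, so they are not. By array, the median ratio of the 142 probes was -0.09 to -0.05 at 10 weeks. At 20 weeks it was 0.38 at ZT0, 0.71 at ZT4, 0.26 at ZT8, 0.36 at ZT12, 0.86 at ZT16 and 2.79 at ZT20. The ages did not overlap. Without the pair of ZT20 the median difference was 0.62. Floxed kidneys without Cre showed a median difference of 0.99 in these probes, with 20-week arrays at 0.06 to 2.18 and ZT20 again the highest. These probes were above background in Cy5 in 80.5% of readings at 10 weeks and 99.5% at 20 weeks, and all probes in 85.2% and 96.9%. The part of signal strength in this difference was not tested. Among the 29495 probes with no rotation and over 30% to 60% G and C, 11.8% were called higher and 14.5% lower, and 133 were called higher and 68 lower by over 2-fold.

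**Figure D2:**
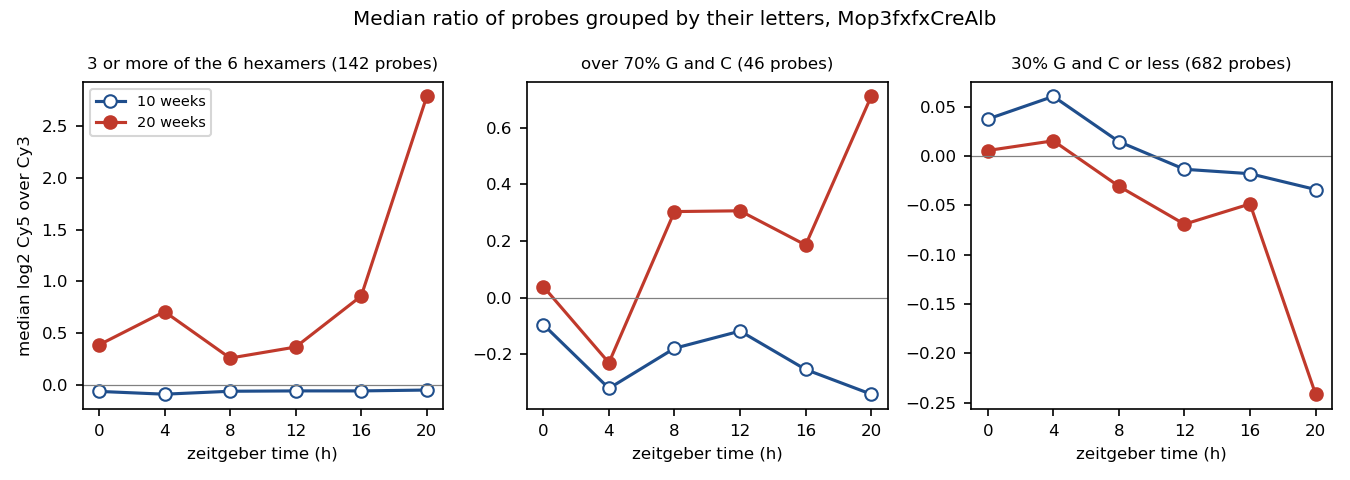
Median log2 Cy5 over Cy3 against zeitgeber time in hours for 142 probes with 3 or more rotations, 46 probes over 70% G and C and 682 probes of 30% G and C or less; open circles are 10 weeks and filled circles 20 weeks, and each panel has its own scale. The 20-week ZT20 array stands at 2.79, 0.71 and -0.24, farthest from 0 in each panel.

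Among the lower genes led by Cy5, 3 of the 4 largest differences belonged to transcripts of brown fat. Ucp1, the uncoupling protein that lets brown fat mitochondria make heat, had ratios at 10 weeks of 1.80 at ZT0, -0.74 at ZT4, -0.83 at ZT8, -0.15 at ZT12, 0.56 at ZT16 and 0.31 at ZT20. At 20 weeks it stood at -1.64, -2.24, -2.61, -2.29, -2.42 and -1.30 in that order. The 10-week pools varied widely, and all were above the 20-week pools. The difference was -2.24 ± 0.25 (SE, limma adjusted p = 0.000755), of which Cy5 alone gave -1.94 and Cy3 0.40. Cidea, a lipid droplet protein, was lower by 2.29 on the log2 scale, with a difference of -2.29 ± 0.30 (adjusted p = 0.00124). Its range was -0.57 to 1.06 at 10 weeks and -2.77 to -1.15 at 20 weeks. Cox8b, a respiratory chain subunit of brown fat and muscle, differed by -1.56 ± 0.23 (adjusted p = 0.00197). Floxed kidneys gave -2.21, -2.26 and -1.31 for the 3 genes.

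The whole brown fat list moved less evenly. Of 10 measured members, 4 were lower and 2 higher, where 18.5% and 13% of all genes were, with a median of -0.17 against -0.01 over all genes. Besides the 3 genes above, Dio2, which activates thyroid hormone, was lower at -0.35, and Slc27a1 and Ppargc1a were higher at 0.43 and 0.49. The second probe of Slc27a1 gave -0.24 and was not called. The call of Dio2 ended without the pair of ZT0, 8 or 12 (adjusted p = 0.0508 to 0.0589) and that of Ppargc1a without ZT0, 4, 8 or 12 (0.0582 to 0.116). Elovl3, Prdm16, Cox7a1 and Fabp3 were not called, at -0.38, 0.05, 0.07 and 0.02. Elovl3 was dim, above background in Cy5 on 2 of 6 arrays at 10 weeks and 1 at 20 weeks. The mean ratio of the list was -0.26 to 0.52 on the 10-week arrays and -0.71 to -0.17 on the 20-week arrays. Ucp1, Cidea and Cox8b were above background in both dyes on all 12 arrays.

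Of 13 measured markers of fat cells in general, 6 were lower and 3 higher, where 18.5% and 13% of all genes were. The median was -0.43. In Cy5 alone 1 was lower and 2 higher, with a median of -0.28, where 15.1% of all probes were called in either direction. Plin1 and Plin4, which coat lipid droplets, were at -0.99 ± 0.13 and -0.83 ± 0.08 (SE, limma adjusted p = 0.0014 and 0.000542), and no array of one age overlapped with the other. Cidec, which enlarges the droplets, was at -1.02 ± 0.17 (adjusted p = 0.00349). Lpl, a lipase that frees fatty acids from lipoproteins, was higher at 1.06 ± 0.09 (adjusted p = 0.000456), with 0.36 in Cy5 and -0.64 in Cy3, but its second probe gave -0.02 (adjusted p = 0.946). Adiponectin (Adipoq) and the fatty acid binding protein Fabp4 were not called, at -0.43 and -0.12, though a dimmer probe of Fabp4 was lower at -0.75. Of 8 measured adrenal markers 0 were higher and 1 lower (limma), Mc2r, at -0.19, whose call ended without the pair of any time but ZT20 (adjusted p = 0.0724 to 0.118). In pooled tissue, fewer cells of a type and less RNA per cell cannot be told apart.

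Transporters of organic anions were among the lower genes as well. Slc22a7, an organic anion transporter of the tubule, was at -0.13 to 0.43 at 10 weeks and at -1.83 to -1.31 at 20 weeks, a difference of -1.67 ± 0.12 (limma adjusted p = 0.00036). Slc22a26, of the same family, was at -0.08 to 0.41 and at -1.46 to -0.48, a difference of -1.33 ± 0.18 (adjusted p = 0.00131). In both, the 2 ages were apart. Mfsd2a, which carries lysophospholipids, was lower by 1.45 ± 0.09 on the log2 scale (adjusted p = 0.00036). The carbonic anhydrase Car15, the histamine-degrading diamine oxidase Aoc1, the matrix collagen Col8a1 and Fam169a differed by -1.40, -1.34, -1.36 and -1.52. The second probe of Col8a1 gave -0.39 and was called, and that of Fam169a gave -0.15 and was not. Esr1, the estrogen receptor alpha, was at 0.13 to 1.49 at 10 weeks and at -0.63 to 0.01 at 20 weeks. Its difference was -1.25 ± 0.17 (adjusted p = 0.0014) here and -0.58 in floxed kidneys. Cebpb, a transcription factor of the acute phase and of fat cells, differed by -1.28 on its brighter and -0.48 on its dimmer probe. The brighter lost its call without slide 3 or slide 5, with adjusted p = 0.065 and 0.054.

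A further set of large differences lay in Cy3, the dye that did not carry the clock rhythm. If Cy3 held the common reference, these are differences of the reference signal between arrays. Higher and lower then describe the ratio only, and whether they belong to the kidneys was not tested. Cox17, a copper chaperone of mitochondria, had ratios of -2.14 to -0.74 at 10 weeks and of -0.10 to 1.52 at 20 weeks, a difference of 2.16 ± 0.29 (SE, limma adjusted p = 0.0014). Cy5 alone gave 0.03 and Cy3 alone -1.84. Its second probe, the one with fewer G and C, gave -0.21 and was not called. Klf2, a transcription factor of endothelium, gave 2.03 ± 0.24 on the probe rich in G and C, from 0.02 in Cy5 and -1.81 in Cy3, and -1.14 ± 0.11 on the other, from -0.78 in Cy5 and 0.37 in Cy3. Both were called, in opposite directions. The forkhead gene Foxq1 gave 1.85, Rusc1 1.72 and the glutamate receptor subunit Grin2d 1.65. Rusc1 and Grin2d were not called without slide 5 (adjusted p = 0.0628 and 0.0565). In the 5 largest lower differences of this kind Cy3 rose by 0.56 to 0.84. They were Cfd (adipsin, of fat cells) at -1.40, Cish (an inhibitor of cytokine signals) at -1.28, the prostaglandin synthase Ptgds at -1.11, the helicase Helz at -1.10 and Emc10 at -1.05. Cish lost its call without the pair of ZT0, 8 or 16 (adjusted p = 0.0519 to 0.0588). Cfd, Cish and Helz lost theirs without slide 5 (adjusted p = 0.0908, 0.0852 and 0.0533) and Cish without slide 1 (0.101).

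**Figure D3:**
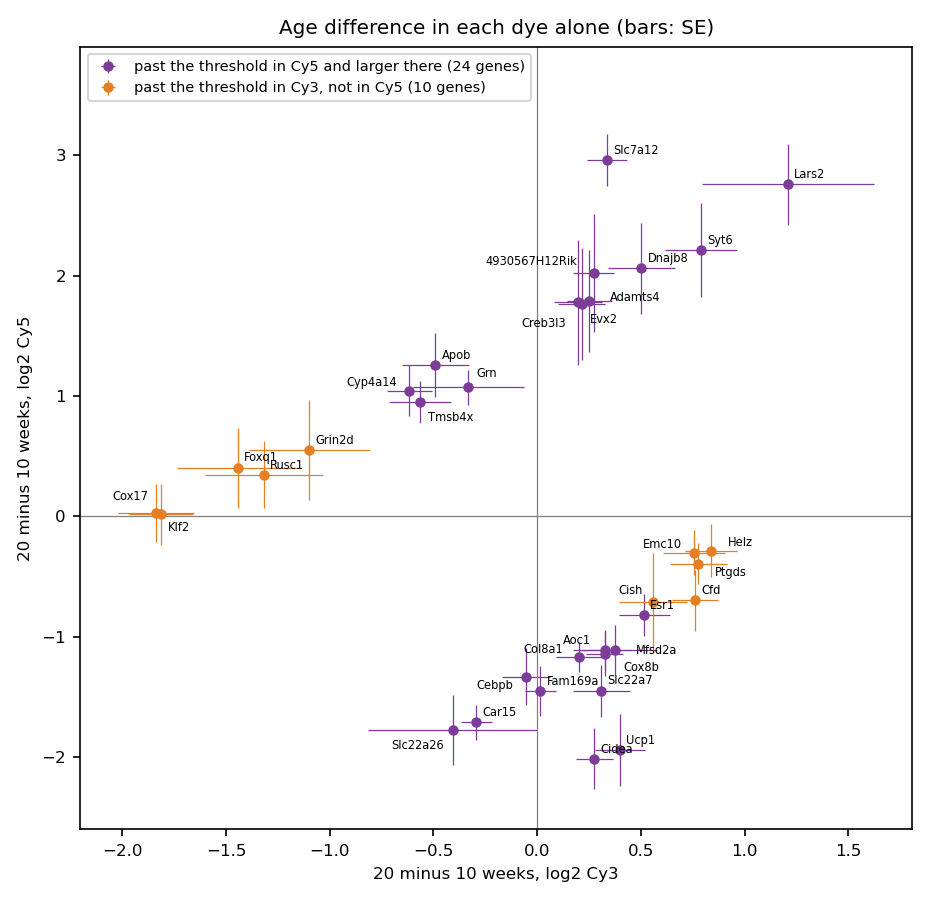
Age difference, 20 minus 10 weeks, in log2 Cy5 (vertical) against log2 Cy3 (horizontal) for the 24 genes led by Cy5 and the 10 led by Cy3; points are limma estimates over 6 pairs and bars are SE. Slc7a12 lies at 2.96 and 0.34, while Cox17 and Klf2 lie near 0 in Cy5 and at -1.84 and -1.81 in Cy3.

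Over the array, 46 probes held over 70% G and C, and 47.8% of them were called higher and 4.35% lower. Their median difference was 0.45 in the ratio, -0.05 in Cy5 and -0.44 in Cy3, and 0.43 in the ratio of floxed kidneys. By array the median ratio was -0.34 to -0.10 at 10 weeks and -0.23 to 0.71 at 20 weeks, with ZT4 the lowest and ZT20 the highest. Of the 682 probes with 30% G and C or less, 6.16% were called higher and 27.4% lower. The part of base composition in single differences was not tested.

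Probes of the same gene often disagreed. Of 7145 genes with 2 or more probes, 3381 (47.3%) had all probes on the same side of 0, and 723 (10.1%) had 2 or more probes called in 1 direction and none in the other. In 402 genes every probe was called in 1 direction, in 2664 only 1 probe was called, and in 338 (4.73%) probes were called in opposite directions. The brightest and the second probe had the same sign in 56.7% of all these genes, in 60.9% where the brightest was called and in 54.3% where it was not. Where the call was larger than 1 the share was 74.5% (79 of 106 genes). It was 77.0% (57 of 74) where Cy5 carried the call and 60% (9 of 15) where Cy3 did. In those 106 genes the second probe was itself called the same way in 28 and the opposite way in 8. Its difference was a median 0.09 of that of the brightest probe there, and 0.14 over all 7145 genes. Probes of a gene share the RNA and the array, so they do not replicate the comparison.

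The widest gaps between called probes of 1 gene, besides Klf2 and Rusc1, were in Ramp2, Slc4a7 and Secisbp2l. Of 5 probes for Ramp2, a partner of the adrenomedullin receptor, 4 were higher, at 1.88, 1.05, 0.91 and 0.82, and 1 lower, at -0.45. The brightest went from -0.21 to 0.43 at 10 weeks to 1.36 to 2.47 at 20 weeks, with no overlap. Slc4a7, a sodium bicarbonate cotransporter, gave 1.27, -0.70 and -0.07 on its 3 probes. Secisbp2l gave -1.32, 0.53 and 0.44. The second value lost its call without the pair of ZT0, 8, 12 or 16 (limma adjusted p = 0.0829 to 0.0947). In Rusc1 the -0.39 of the second probe lost its call without the pair of any time but ZT20 (adjusted p = 0.0754 to 0.132).

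Of 18 measured amino acid transporters 10 were higher and 1 lower, where 13% and 18.5% of all genes were. In Cy5 alone 5 were higher and 1 lower, where 15.1% of all probes were called in either direction. The median was 0.34 against -0.01 over all genes, and 0.17 with arrays centred on their median. Besides Slc7a12 these include Slc7a9, the light chain of the cystine transporter, which went from -0.15 to 0.35 at 10 weeks to 0.33 to 0.84 at 20 weeks, a difference of 0.56 ± 0.08 (limma adjusted p = 0.00188). Slc36a1 and Slc38a3, carriers of small neutral amino acids and of glutamine, were higher at 0.63 and 0.47, and a second, dim probe of Slc36a1 gave 0.04 and was not called. The exception was Slc7a8, at -0.65 (adjusted p = 0.0489), a call that ended without the pair of ZT0, 8, 12 or 16 (adjusted p = 0.0643 to 0.146). Slc6a19, the main neutral amino acid carrier of the brush border, was not called, at -0.36. The list mean was -0.15 to -0.07 on the 10-week arrays and -0.05 to 0.37 on the 20-week arrays, which did not overlap.

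Of 27 organic ion transporters 8 were higher and 5 lower, and the share of lower members was that of all genes (18.5%; 13% of all genes were higher). The median was 0.10, and 0.02 with median centring. Without the pair of ZT20 the counts were 14 and 5. Slc22a8 (OAT3), which takes up organic anions from blood, was at -1.09 to 0.04 at 10 weeks and at 0.18 to 0.76 at 20 weeks, a difference of 1.18 ± 0.18 (limma adjusted p = 0.00212). Its other probes gave 0.63 and 0.51 and were not called. Slco3a1 was lower at -0.69 ± 0.09 (adjusted p = 0.00124), with 0.05 in Cy5 and 0.73 in Cy3. Slc22a6 (OAT1), the partner of Slc22a8 in that uptake, was not called, at -0.27, while its other probe was higher at 0.54. Of 26 genes of salt and water transport 5 were higher and 5 lower, against 13% and 18.5% of all genes. The number higher was 2 without the pair of ZT0 or ZT16, 3 without that of ZT4, 8 or 12 and 7 without that of ZT20. The list had a median of 0.06 that turned to -0.18 when arrays were centred on their median in place of loess. The water channel Aqp1 and the kinase Wnk1 were higher at 0.57 and 0.83, while the vasopressin receptors Avpr1a and Avpr2 were lower at -0.64 and -0.43. Of 12 collecting duct markers 3 were lower and 1 higher, and of 14 proximal tubule markers 4 were higher and 0 lower (limma), the median of the latter being 0.07 with loess and -0.29 with median centring. In the proximal tubule the higher genes included the lactate carrier Slc5a12 and the citrate carrier Slc13a3, at 0.64 and 0.76. The first was 1.35 in Cy5 and 0.72 in Cy3, the second -0.43 in Cy5 and -1.18 in Cy3.

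Genes of fatty acid oxidation and PPAR alpha targets were higher in 7 and lower in 3 of 25, against 13% and 18.5% of all genes. Their median of 0.12 was -0.13 with median centring. Acadm, a dehydrogenase of medium-chain fatty acids, was higher at 0.63 ± 0.09 (limma adjusted p = 0.00177). Acot2, a mitochondrial thioesterase, was higher at 0.76 ± 0.09 (adjusted p = 0.000784), which lay in Cy3 (-0.91) and not in Cy5 (-0.10). Cpt2, which hands fatty acids to the mitochondrial matrix, was lower at -0.72 ± 0.10 (adjusted p = 0.00152). In cholesterol synthesis 6 of 17 genes were lower and 3 higher, against 18.5% and 13% of all genes, with a median of -0.06 that was -0.15 with median centring. Only 3 were lower without the pair of ZT8, 12 or 16. Dhcr7, which catalyses the last step of one branch, was lower at -0.50, whereas Insig1, which restrains the pathway, was higher at 0.50. Their second probes gave 0.17 and 0.11 and were not called. The called probe of Insig1 holds 1 rotation of the hexamer. Of 18 genes that activate or conjugate acetaminophen 5 were higher and 2 lower, and their median of 0.10 was -0.04 with median centring. The sulfotransferase Sult1d1 was higher at 1.09 ± 0.08 (adjusted p = 0.00036).

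Of 20 genes of cell division 10 were lower and 1 higher, against 18.5% and 13% of all genes, with a median of -0.28 (-0.24 with median centring). In Cy5 alone 2 were lower and 1 higher, where 15.1% of all probes were called in either direction. The replication helicase subunits Mcm3 and Mcm6 differed by -0.51 ± 0.08 and -0.70 ± 0.13 (limma adjusted p = 0.00261 and 0.00482), and the mitotic kinase Aurka by -0.66 ± 0.12 (adjusted p = 0.00565). In each of the 3 the ages were apart. The second probe of Mcm3 gave 0.23 and was not called. The exception was Pcna, the sliding clamp of DNA polymerase, at 0.43 ± 0.09 (adjusted p = 0.00737). Mki67, Top2a and Cdk1 were not called, at -0.25, 0.02 and -0.10. Interferon-stimulated genes were lower in 5 and higher in 1 of 14, with a median of -0.14 that was 0.03 with median centring. Without the pair of ZT0, 8, 12 or 16 only 2 or 3 of the 14 were lower. Bst2, which tethers viruses to the cell, was lower at -0.74.

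Markers of B and plasma cells were higher in 3 and lower in 0 of 9 (limma), against 13% and 18.5% of all genes. Jchain, which links antibody chains in plasma cells, was at -0.44 to 0.22 at 10 weeks and at 1.03 to 1.90 at 20 weeks, a difference of 1.33 ± 0.13 (adjusted p = 0.000582). Its second probe gave 1.76 and was called. Cd74, the invariant chain of antigen presentation, was higher at 0.89 ± 0.11 (adjusted p = 0.00105), and of 8 T cell markers Cd3g alone was called, at 0.79. Cd79a, Ms4a1 and Ighm, which define B cells, were not called, at 0.11, 0.09 and -0.06, though a dimmer probe of Ighm was higher at 0.90. Of 12 markers of fibroblasts and matrix 2 were lower and 0 higher (limma), and without the pair of ZT12 1 was lower, while without that of ZT20 2 were lower and 2 higher. Collagen Col1a1 was lower at -0.73 ± 0.11 (adjusted p = 0.00193), and its second probe gave 0.20 and was not called. Agt, the precursor of angiotensin, and the renin gene Ren2 were lower at -0.86 and -0.69, the latter from Cy3 (0.85) and not Cy5 (0.15), while Ren1 was not called on its brighter probe, at -0.26, and was higher on the other, at 0.25. The close sequences of Ren1 and Ren2 leave their separation by these probes uncertain.

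Known sex-biased genes of the kidney did not move one way. All 6 measured female-biased genes were called, 3 higher (Slc7a12, Cyp4a14 and Prlr) and 3 lower (Slc22a7, Slc22a19 and Abcc3). Over all genes 13% were higher and 18.5% lower. The call of Prlr, the prolactin receptor, ended without the pair of ZT12 (adjusted p = 0.0618). Of 14 male-biased genes 4 were higher and 2 lower, and without the pair of ZT20 7 were higher. With all pairs the median was 0.10, and it was -0.18 with median centring. Slc7a13, an aspartate and glutamate carrier, was higher at 0.93 ± 0.19 (limma adjusted p = 0.00766) on 1 probe and not called, at 0.16, on the other, and the steroid hydroxylase Cyp7b1 was lower at -0.61 ± 0.09 (adjusted p = 0.0021). Kap, the androgen-dependent kidney protein, was not called, at 0.04.

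The counts of the other cell type markers stand beside 13% of all genes higher and 18.5% lower. Of 5 measured red blood cell markers 2 were higher and 0 lower (limma), and all 5 differences were above 0. The median was 0.45, and 0.37 with median centring. Without the pair of ZT0 4 were higher, and without that of ZT12 1 was. In Cy5 alone 0 were called (limma), where 15.1% of all probes were. The list mean was -0.36 to 0.22 on the 10-week arrays and 0.25 to 0.55 on the 20-week arrays. Alb, the plasma protein of hepatocytes whose promoter drives the Cre, was at -0.48 to 0.90 at 10 weeks and at 0.08 to 1.20 at 20 weeks, which overlap, a difference of 0.67 ± 0.20 (limma adjusted p = 0.0362). That call ended without the pair of ZT8, 12 or 16 (adjusted p = 0.104 to 0.112). Of 11 liver markers 2 were higher and 1 lower, the lower one being the apolipoprotein Apoc3 at -0.62, and without the pair of ZT12 or of ZT16 0 were higher and 1 lower. Of 10 endothelial markers 2 were higher and 1 lower, with the sialomucin Emcn at 0.57 ± 0.08 (adjusted p = 0.00182), and without ZT20 the counts were 3 and 2. Of 10 markers of the thick limb and distal tubule 3 were lower and 1 higher, among them the tight junction protein Cldn16 at -0.79 ± 0.09 (adjusted p = 0.000899). Of 8 podocyte markers 1 was higher and 2 lower, while Nphs1, of the slit diaphragm, was not called, at 0.12.

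Of 14 genes of tubule injury and inflammation 2 were higher and 4 lower, against 13% and 18.5% of all genes, and without the pair of ZT12 2 were lower. Havcr1, the injury marker KIM-1, was higher at 0.48 ± 0.07 (limma adjusted p = 0.00182) and the adhesion molecule Vcam1 at 0.50, whereas Icam1 and clusterin (Clu) were lower at -0.49 and -0.48, both led by Cy3. Dimmer probes did not follow. The second of Havcr1 gave -0.02 and those of Vcam1 -0.05 and 0.13, with none called, and that of Icam1 was called higher, at 0.26 (adjusted p = 0.0266). Lcn2, another injury marker, was at -0.00 and not called. Of 22 respiratory chain genes 2 were higher and 3 lower, and of 28 ribosomal protein genes 3 higher and 4 lower, shares below the 13% and 18.5% of all genes. These counts were 1 and 1 and 1 and 3 without the pair of ZT12, and 5 respiratory chain genes were lower without that of ZT0. The medians, 0.02 and -0.10, were -0.39 and -0.51 with median centring. Sdha, a subunit of succinate dehydrogenase, was higher at 0.71 ± 0.10 (adjusted p = 0.00198), with 0.45 (called) and 0.03 (not called) on its other probes, and the ribosomal protein Rpl10 was higher at 0.46.

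**Figure D4:**
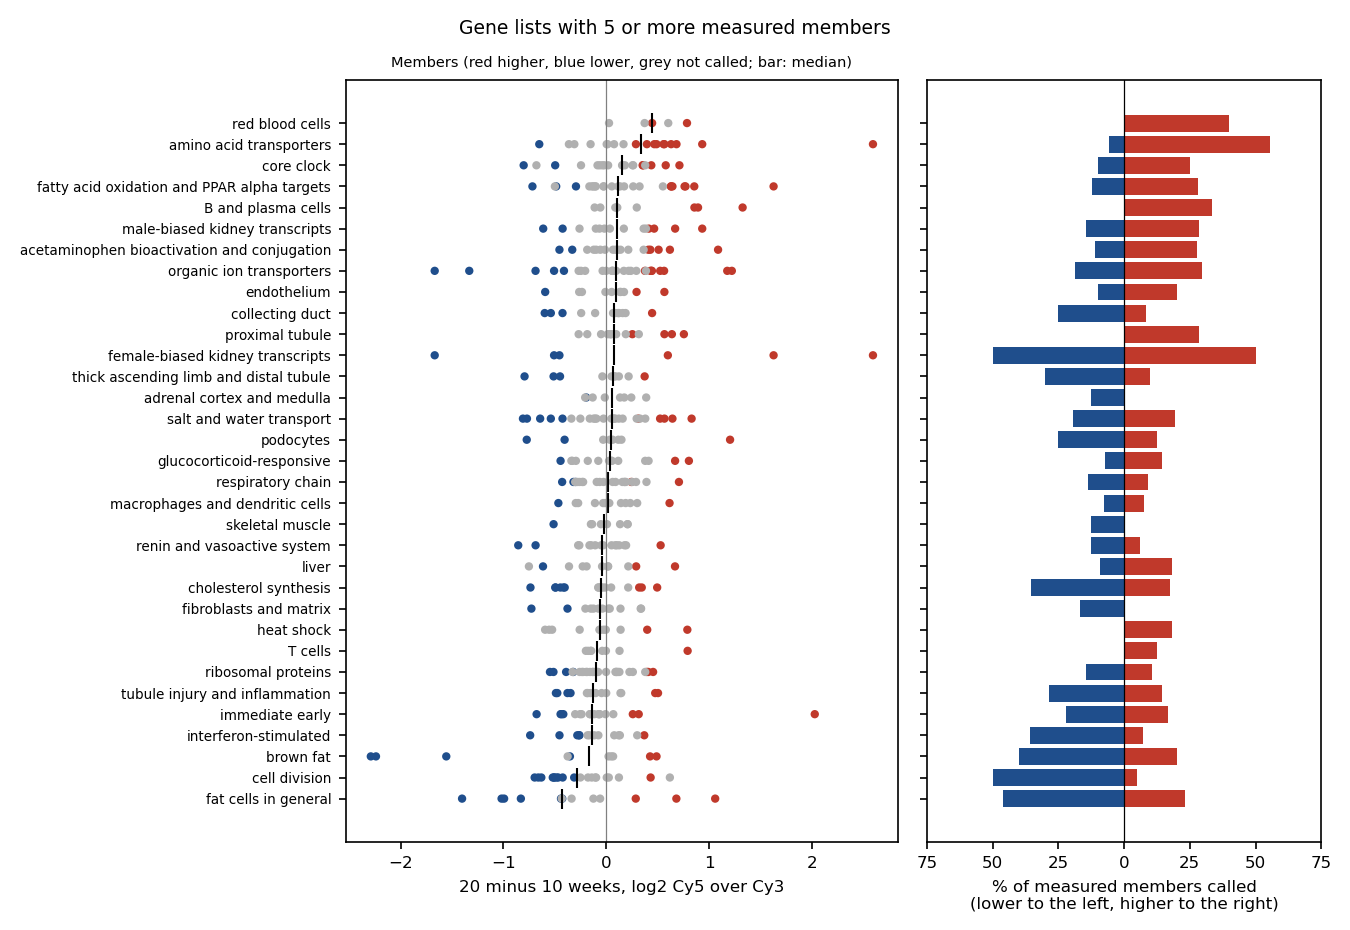
Left, age difference in log2 Cy5 over Cy3 of each measured member of the gene lists with 5 or more members (red called higher, blue called lower, grey not called, black bar the median); right, the percent of measured members called lower and higher. With loess, as plotted, the medians of amino acid transporters, cell division and ribosomal proteins are 0.34, -0.28 and -0.10, and with median centring they are 0.17, -0.24 and -0.51, so the order of the lists depends on the scaling.

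Clock genes of the kidney had a daily course at both ages. Dbp, an output of the clock, was -1.93, 0.47, 1.21, 0.74, -0.85 and -1.55 at 10 weeks and -1.93, 0.01, 0.96, 0.14, -1.81 and -2.26 at 20 weeks, from ZT0 to ZT20. The peak was at ZT8 in both. Its amplitude was 1.63 at 10 and 1.72 at 20 weeks. That of Arntl was 1.03 and 0.94, of Per2 0.98 and 0.86 and of Nr1d2 0.72 and 1.20. Rhythms over both ages passed in Dbp, Arntl, Per2, Nr1d2, Nr1d1 and Tef, among others of the 20 clock genes (limma adjusted p = 0.000455 to 0.0383). Arntl itself is no check of the deletion, since the Cre acts in hepatocytes and the tissue is kidney.

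On top of that course, 5 of 20 clock genes were higher and 2 lower at 20 weeks, against 13% and 18.5% of all genes. Their median was 0.16 in the ratio and -0.11 in Cy5. In Cy5 alone 1 was higher and 1 lower, and in Cy3 alone 1 was higher and 4 lower. Of all probes, 15.1% were called in Cy5 alone and 20.7% in Cy3 alone, in either direction. Without the pair of ZT20 8 were higher in the ratio, and without that of ZT12 1 was lower. Nr1d2, a repressor of Arntl, went at 20 weeks from -0.31 at ZT0 to 1.33 at ZT8 and -1.35 at ZT20, and at 10 weeks from -0.76 to 0.06 and -1.37. It was higher in 6 of 6 pairs, by 0.71 ± 0.14 (limma adjusted p = 0.00733). Per2 was higher at 0.58, the output gene Hlf at 0.35 and Clock at 0.36 ± 0.07 (adjusted p = 0.00756). Nfil3, which opposes Dbp, was lower in 6 of 6 pairs, at -0.80 ± 0.16 (adjusted p = 0.00766). Dbp was lower at -0.50, a call that ended without the pair of ZT12 (adjusted p = 0.0533). Arntl was higher at 0.44 ± 0.13 (adjusted p = 0.041), and that call ended without the pair of ZT8, 12, 16 or 20 (adjusted p = 0.0597 to 0.111). Per1, Cry1, Cry2 and Nr1d1 were not called, at 0.38, -0.04, 0.26 and -0.02. With time of day left out of the fit none of the 7 calls passed, with adjusted p = 0.105 to 0.602.

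**Figure D5:**
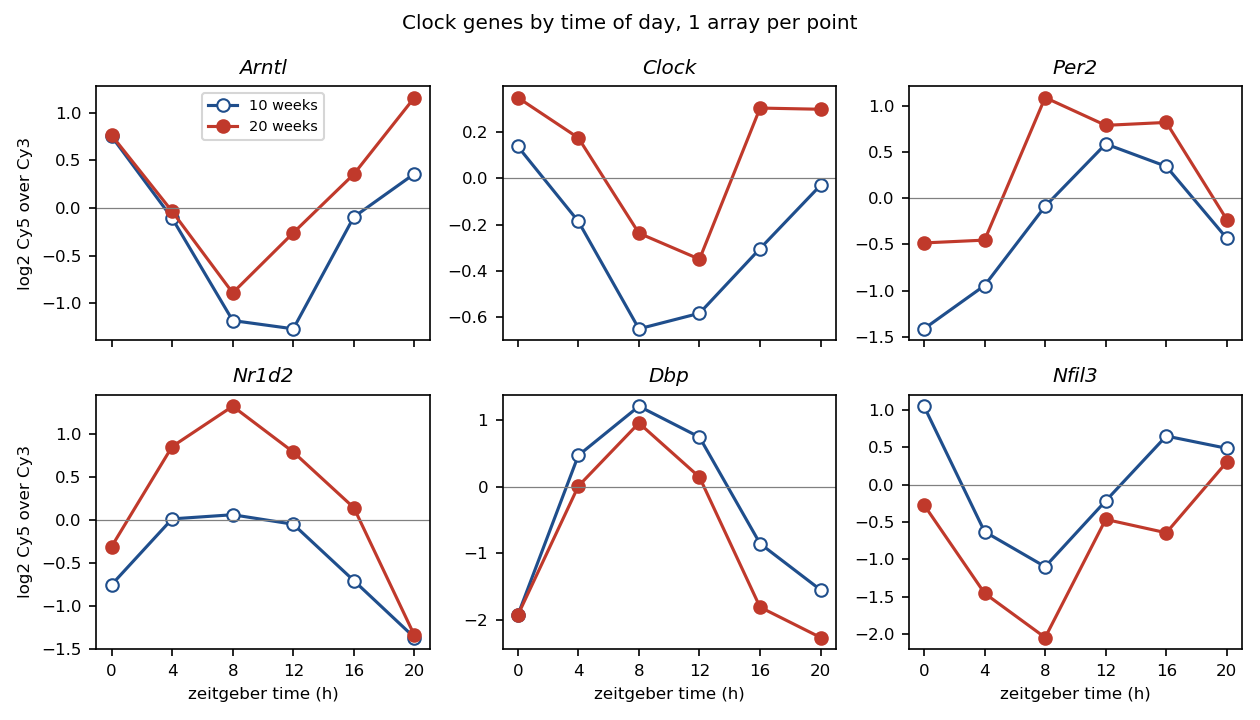
Log2 Cy5 over Cy3 against zeitgeber time in hours for 6 clock genes, 1 array per point; open circles are 10 weeks and filled circles 20 weeks, and scales differ between panels. Dbp peaks at ZT8 in both ages, and Nr1d2 is higher at 20 weeks by 0.71 on average.

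A change of the daily course with age was not detectable. The product of age with the 24 h rhythm passed in 0 of 31958 probes (0%, limma F test), where 1986 had an unadjusted p under 0.05 and the smallest adjusted p was 0.772. With array weights the count was 0 as well (3134 unadjusted, smallest adjusted p 0.195), and in Cy5 alone also 0 (1325, 0.982). With 1 array per age and time, such a miss does not show that the daily course was the same. The 5 probes with the smallest p were of Wdfy3, Trpc1, Dab2, Helz and Ago1. Dab2, an adaptor for protein uptake in the tubule, was at 0.83, 1.45, 0.93, 0.11, -0.24 and -0.29 at 20 weeks and within 0.04 to 0.35 at 10 weeks. Trpc1, a cation channel, spanned -0.32 to 0.40 at 20 weeks and 0.07 to 1.09 at 10 weeks.

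No age difference was shown to depend on the hepatocyte Cre. The product of genotype and age over all 24 arrays passed in 0 of 31958 probes (0%, limma), 3061 having an unadjusted p under 0.05. The smallest adjusted p was 0.494. The count was also 0 without the pairing (3612, 0.285), with array weights (3574, 0.257) and with slide as a random block (2219, 0.714). A miss at this threshold does not show that the genotypes aged alike. The smallest p belonged to Rgs5, a regulator of G protein signals in pericytes, which differed by -0.11 here and by 0.52 in floxed kidneys. Clock had an unadjusted p of 0.00041, with 0.36 here and -0.04 in floxed kidneys. Pcolce, which aids procollagen cleavage, differed by -0.95 and -0.48. Fdps, an enzyme of cholesterol synthesis, gave 0.40 and -0.02 on this probe, while its brightest probe gave -0.40 here. All of these had an adjusted p of 0.494 for the difference between genotypes.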

How the data were processed

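The deposited files are scanner outputs of 2-colour Agilent 60-base arrays, with Cy3 and Cy5 intensities per spot extracted by Agilent Feature Extraction 9.1.3.1, per the file headers. The deposited value table holds the scanner's own log ratio (equal within 1e-05 in 100% of values, by comparison). As deposited, 78.4% to 97.3% of its values per array equal log10 of the processed Cy5 over Cy3 signals, and 2.71% to 21.6% are exactly 0. It served only to check the direction. Here the mean intensities were background-corrected (normexp, offset 50), dye-corrected within each array by loess (limma 3.58.1, R 4.3.3) and averaged over spots of a probe. Probes above background in either dye on at least 6 of the 12 arrays were kept (31959 of 41174), and 31958 could be fitted. limma fitted age with zeitgeber time as a factor, two-sided, with Benjamini-Hochberg adjustment over all probes and a threshold of 0.05. Each dye alone was quantile-scaled between arrays. The pairing comes from the labelled time of day: arrays of the same time correlated in their deviations from the age means at 0.15 (ZT0), 0.24, 0.11, 0.13, -0.0046 and -0.13 (ZT20). A gene was read by its brightest probe. Probes were named by accession (24375) or symbol through RefSeq, and 8072 kept the file's name.

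Named were the 12 largest differences in each direction carried by Cy5 with no contrary probe and at most 2 saturated arrays, the 5 carried by Cy3, the 5 genes with the widest opposite calls, the clock and sex chromosome genes, up to 4 members of each other list with the smallest p, and the 5 smallest p of each product. Other list members, and the probe letters, were chosen after their values were seen. The members, lists and rules were chosen with earlier results of these data known. Alternatives changed the background correction, scaling, filter, time term, array weights, slides and arrays. Pools limit the precision, and the number of arrays is 12. Positions of the probes in the genome were not analysed here. Some members and probe sequences are not reported here.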

Additional observations from a re-analysis of the deposited data

Results flagged for a closer look

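In 25 of 386 groups of 6 arrays 1 array lay far from the other 5 by Dixon's test. Chance gives about 1 in 20 groups. Of the 25, 12 were the 20-week array of ZT20, the brightest array, and the part of its signal strength was not tested. Its values were 3.80 for 4930567H12Rik, 3.68 for Adamts4, 3.49 for Creb3l3, 3.64 for Dnajb8, 3.50 for Evx2 and 3.29 for Syt6, whose probes all hold a rotation of the hexamer. It also stood at 1.28 for Csf1r, -0.66 for Dusp1, -0.72 for Isg15, -0.78 for Podxl, -0.13 for Sdha and 1.68 for Slc7a12. The other 20-week values were -0.57 for Icam1 at ZT0, and 1.01 for Pnmt and 0.26 for Timp1 at ZT16.

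At 10 weeks the values were -1.28 for Cry2 at ZT0, then -0.80 for Acot2, -0.62 for C1qb and 0.26 for Slc4a1 at ZT4. Podxl was at -0.044 at ZT8 and Slc7a9 at 0.35 at ZT12. Bst2 was at 0.78 and Cish at 1.30 at ZT16, and Gzma at 0.26 and Pnmt at -0.27 at ZT20.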

How the results depend on the processing

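Of 152 counts recomputed under other settings, 117 stayed within 1.5 times the reported value. Some repeat by construction. Dropping either array of a pair leaves the same pairs, and a scaling of mean intensities between arrays leaves the ratio as it was. Median centring in place of loess gave 0 called probes in the ratio (7012 at an unadjusted p under 0.05) and 0 called list members by limma. It turned the sign of Atp5o to -0.14 and of Lrp2 to -0.15. These were the 2 sign changes of called genes among 5348 values of single genes, called or not. In 532 of those values a called gene lost its call. The 24 genes led by Cy5 and the 10 led by Cy3 kept their sign with median centring, with limma adjusted p = 0.0539 to 0.109. Ratio calls numbered 5385 without slide 1, 4818 without slide 3 and 1980 without slide 5, and list calls (164) fell to 45 without slide 5, to 77 in Cy5 alone and to 105 in Cy3 alone. Cy5 alone called 631 probes with 75th percentile scaling, 8591 with array weights, and 190, 1 and 5 without slides 1, 4 and 5. Cy3 alone called 1414 with 75th percentile scaling, 2421 with slide as a random block, 13490 with array weights, and 3571, 1 and 0 without slides 1, 3 and 4 (3932 at an unadjusted p under 0.05 in the last). Dropping 1 array drops its pair. Ratio calls then ran from 5740 (ZT16 out) to 11430 (ZT20 out), list calls from 118 to 198, genes with all probes of one sign from 3357 to 3452, Cy5 calls from 6 (ZT16 out) to 4497, and Cy3 calls from 2397 (ZT20 out) to 7811. With no replicate block, that is without the pairing by time, the ratio gave 8991 calls. With slide as a random block it gave 7273. Over 2-fold calls were 287 higher and 77 lower, 817 and 405 with the scanner's processed signals. The cause of these moves was not tested. Fewer arrays leave fewer degrees of freedom, and dim probes limit what each dye can show.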
